A study of Rattus norvegicus with 19 samples.

Results

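Thymus gene expression at 10 ml/kg corn oil was compared with that at 5 ml/kg corn oil, which covers 9 of the 19 arrays of the study, 5 at the larger volume and 4 at the smaller. The arrays were chosen by the volume in their titles, with no measured value used. All arrays came from whole thymus of female Wistar rats aged 7 weeks, given saline (10 ml/kg, 5 arrays) or corn oil (2 ml/kg, 5 arrays, and the volumes compared here) into the stomach by tube every day for 14 days. Groups began with 6 animals housed 3 to a cage, and the labels name neither the cage nor the animal behind an array, so p-values measure the spread between arrays numbered as replicates. As both groups received the same liquid, the comparison asks what a larger volume of oil adds, and it holds no arrays without oil.

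The thymus is the organ in which T cells mature. Immature thymocytes rearrange their receptor genes in the cortex, and epithelial and dendritic cells that display peptides on MHC class II molecules test them. A rat thymus is surrounded by white and brown fat, and B cells, granulocytes and mast cells are found in and around it. Corn oil is a triglyceride of mostly unsaturated fatty acids and serves as a solvent for compounds dosed by mouth.

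Values are log2 of the processed spot intensity of a 1-colour Agilent array relative to the array's 75th percentile, so that a gene at 0 was as bright as that percentile. Differences are 10 minus 5 ml/kg, given ± SE from limma's fit of all 19 arrays, with n = 5 and n = 4 and p-values adjusted by Benjamini-Hochberg over all 25475 probes tested. The arrays of the comparison lay on 3 slides. Replicates 1, 3 and 4 at 5 ml/kg were on slide 2, replicates 1 to 3 at 10 ml/kg were on slide 3, and slide 5 carried replicate 2 at 5 ml/kg beside replicates 4 and 5 at 10 ml/kg. Each slide was scanned on a day of its own among these. Most of the difference between the groups is thus also a difference between slides 2 and 3, and values with slide as a block and within slide 5 stand beside the results. The share of spots well above background was 78.9% to 88.4%. The 10 ml/kg arrays of slide 3 had 446 to 594 spots marked as non-uniform, and the other arrays 11 to 63. Correlations over probes were 0.988 to 0.993 for pairs sharing both group and slide (7 pairs) and 0.985 to 0.986 between the groups within slide 5 (2 pairs). They were 0.970 to 0.990 within a group across slides (9 pairs) and 0.969 to 0.982 between the groups across slides (18 pairs). Of the pairs within a group across slides, those at 10 ml/kg lay at 0.9702 to 0.9765 and those at 5 ml/kg at 0.9874 to 0.9895.

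The labelled tissue was borne out by its markers. Rag1, which cuts the receptor genes, lay between 4.36 and 4.91 on the 9 arrays, and Cd8a between 3.65 and 4.03. Of 18 immature thymocyte genes tested, 16 were well above background on all 9 arrays, as were 20 of 22 thymic epithelium genes.

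At 10 ml/kg a small set of genes stood many-fold apart from 5 ml/kg on every array, while most thymus genes differed little. Mei1, Bad and Lcn2 were far higher at 10 ml/kg, and Vegfb, Gdf3, Itln1 and Mlycd were far lower. One probe each of RT1-Bb (an MHC class II chain) and Cd300lg also stood far apart, higher and lower, while another probe of each gene did not pass. Granulocyte, B cell, mast cell and MHC class II genes had medians of 0.82, 0.77, 0.31 and 0.30. In the mast cell and class II lists the array medians overlapped between the volumes. White and brown fat genes had medians of -1.73 and -1.70, with wide spread between arrays. Genes of the T cell receptor and of immature thymocytes had medians close to 0.

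In all, 2007 of 25475 probes passed the threshold of 0.05 (7.88%). Of these, 881 were higher at 10 ml/kg (3.46% of the probes tested) and 1126 were lower (4.42%). They included 1172 genes with a symbol, 659 probes that differed over 2-fold and 155 that differed over 4-fold. The median difference over all probes was -0.11, so a gene at that value sat with the median probe. Quantile normalization moved this median to 0.05, normexp background correction to -0.03, and the deposited value table gave -0.06. The share of higher probes among those called moved with the scaling, from 43.9% to 65.4% after quantile normalization, 64.2% after normexp and 64.3% in the deposited table. The 5 and the 4 arrays did not overlap in 2879 probes (11.3%), of which 1294 were higher at 10 ml/kg and 1585 lower, and 1536 of them were also called.

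The number of calls differed widely with how slide was treated. With slide as a block (11 residual degrees of freedom against 15) the fit called 295 probes (1.16%), 174 higher and 121 lower, of which 262 were among the 2007 and in the same direction. Within slide 5, where 2 arrays at 10 ml/kg lay beside 1 at 5 ml/kg, a fit of group by slide called 136 probes (0.534%), 93 higher and 43 lower, and 111 of these were shared with the main calls in the same direction. That lone array was assumed to vary like the others. Between slides 3 and 2, with 3 arrays a group, a comparison added after the data had been seen, 9844 of 25403 probes passed (38.8%), of which 2459 were higher and 7385 lower. Without the 10 ml/kg arrays of slide 3, a fit also added later, 595 passed. Among the 10 and 5 ml/kg arrays of slides 3 and 2, slide and volume cannot be told apart. Slide 3 also carried saline replicate 5, and slide 2 also carried replicate 5 at 2 ml/kg. The fit with slide as a block included both, so its slide terms for slides 3 and 2 rest partly on 1 such array each.

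**Figure D1:**
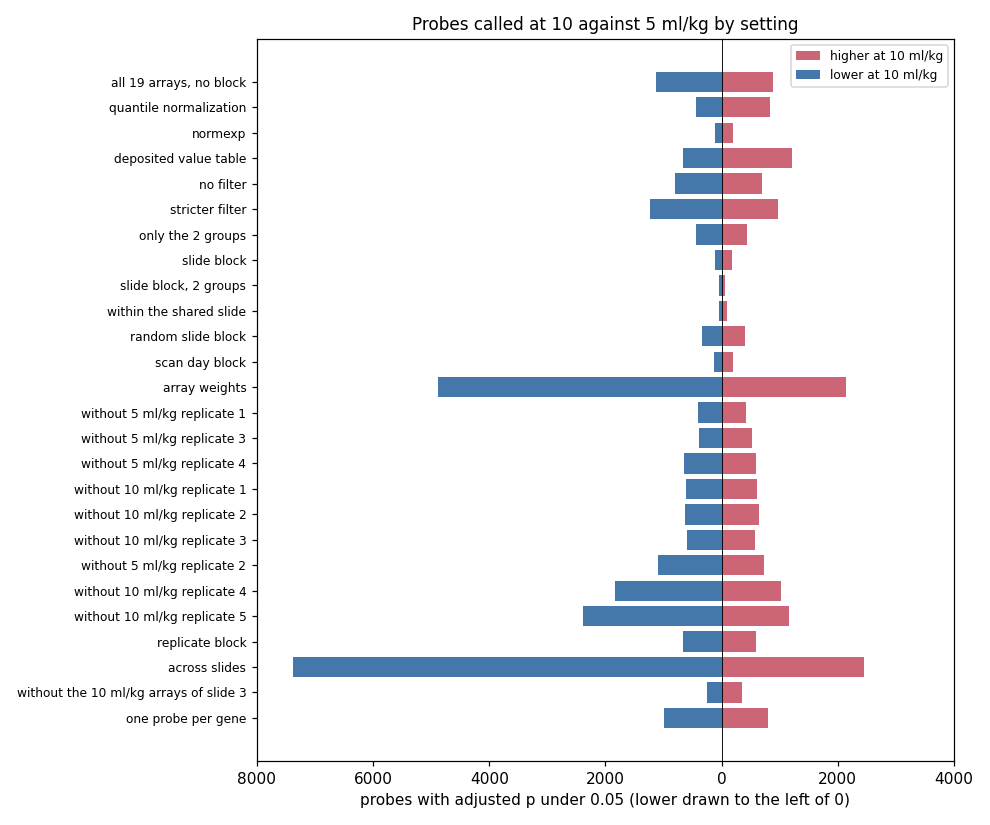
Number of probes called at 10 against 5 ml/kg (adjusted p under 0.05), higher to the right of 0 and lower to the left, in the main fit of all 19 arrays and under each other setting. The count runs from 95 with slide as a block in a fit of the 2 groups alone to 9844 between slides 3 and 2, against 2007 in the main fit.

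As a description of probes chosen by the main fit, which includes the arrays of all 3 slides, the median absolute difference of the 2007 was 0.73 there, 0.44 within slide 5 and 0.86 between slides 3 and 2, and 117 had the opposite sign within slide 5. The count of calls also moved by over 1.5 times when single arrays were left out. It was 834 without 5 ml/kg replicate 1, 919 without replicate 3 and 1245 without replicate 4. It was 1222 without 10 ml/kg replicate 1, 1282 without replicate 2, 1168 without replicate 3 and 3547 without replicate 5.

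**Figure D2:**
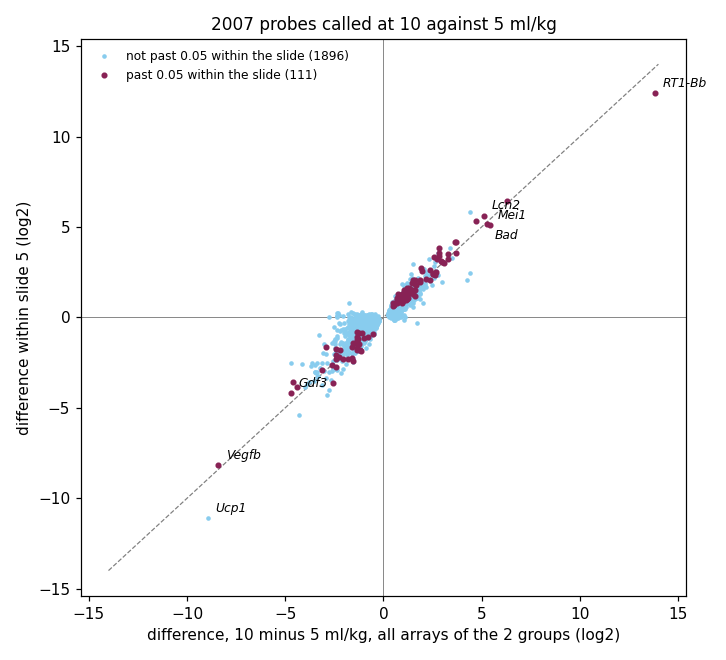
The 2007 called probes, with the difference over all arrays of the 2 groups (x, log2) against the difference within slide 5 (y, log2) and the line of equal values dashed. Dark points are the 111 past the threshold within the slide; RT1-Bb, Mei1, Bad, Lcn2, Vegfb and Gdf3 lie near the line, while many probes with smaller differences lie near 0 on the y axis.

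The arrays of each volume were also set against all other arrays of the study. The 5 values at 10 ml/kg lay outside those of all 14 others in 714 probes (2.80%), above them in 351 and below them in 363, and by more than 1 log2 unit in 55. The 4 values at 5 ml/kg lay outside those of the 15 other arrays in 54 probes (0.212%), and by more than 1 log2 unit in 0. Both counts share arrays with the comparison described here.

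The largest rise was that of a probe of RT1-Bb, the beta chain of the rat class II molecule RT1-B. It read 3.88, 4.30, 4.61, 4.75 and 4.83 in replicates 1 to 5 at 10 ml/kg. At 5 ml/kg it read -9.03, -7.61, -9.86 and -11.01 and was well above background on 0 of 4 arrays, 2 of 5 with saline and 1 of 5 at 2 ml/kg. No array outside the 10 ml/kg group read above -5.09. The groups lay far apart, and the signal was at least 5928-fold higher at 10 ml/kg (adjusted p = 2.16e-08 with limma, 2.37e-05 with slide as a block, 0.000535 within slide 5). That bound belongs to the main processing, and after normexp the difference of this probe was 9.09. A brighter probe of the same gene differed by 0.01 ± 0.11 (adjusted p = 0.966). The probes of this gene thus disagree, and the level of RT1-Bb as a whole is not settled by them.

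Mei1, needed for the DNA breaks that start meiotic recombination, read -0.94, -0.74, -0.37, -0.54 and -0.55 at 10 ml/kg and -5.71, -5.66, -6.59 and -6.26 at 5 ml/kg, a difference of 5.43 ± 0.24 (adjusted p = 1.94e-10, limma). Bad, a pro-apoptotic BH3-only protein of the BCL2 family, read -0.42, -0.57, -0.64, -0.76 and -0.78 against -6.00, -5.92, -6.00 and -5.74, a difference of 5.28 ± 0.19 (adjusted p = 1.65e-11). Lcn2, a siderophore-binding protein stored in neutrophil granules, read -0.75, -0.46, -0.51, -0.44 and -0.14 against -5.69, -5.92, -5.48 and -5.26, a difference of 5.13 ± 0.22 (adjusted p = 1.48e-10). In each of these genes all 5 arrays at 10 ml/kg lay above all 14 other arrays, with saline between -6.47 and -5.66 for Mei1, between -5.91 and -5.15 for Bad and between -6.05 and -4.80 for Lcn2. Within slide 5 the differences were 5.12, 5.15 and 5.63. After normexp they were smaller, at 3.47, 3.57 and 3.65.

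**Figure D3:**
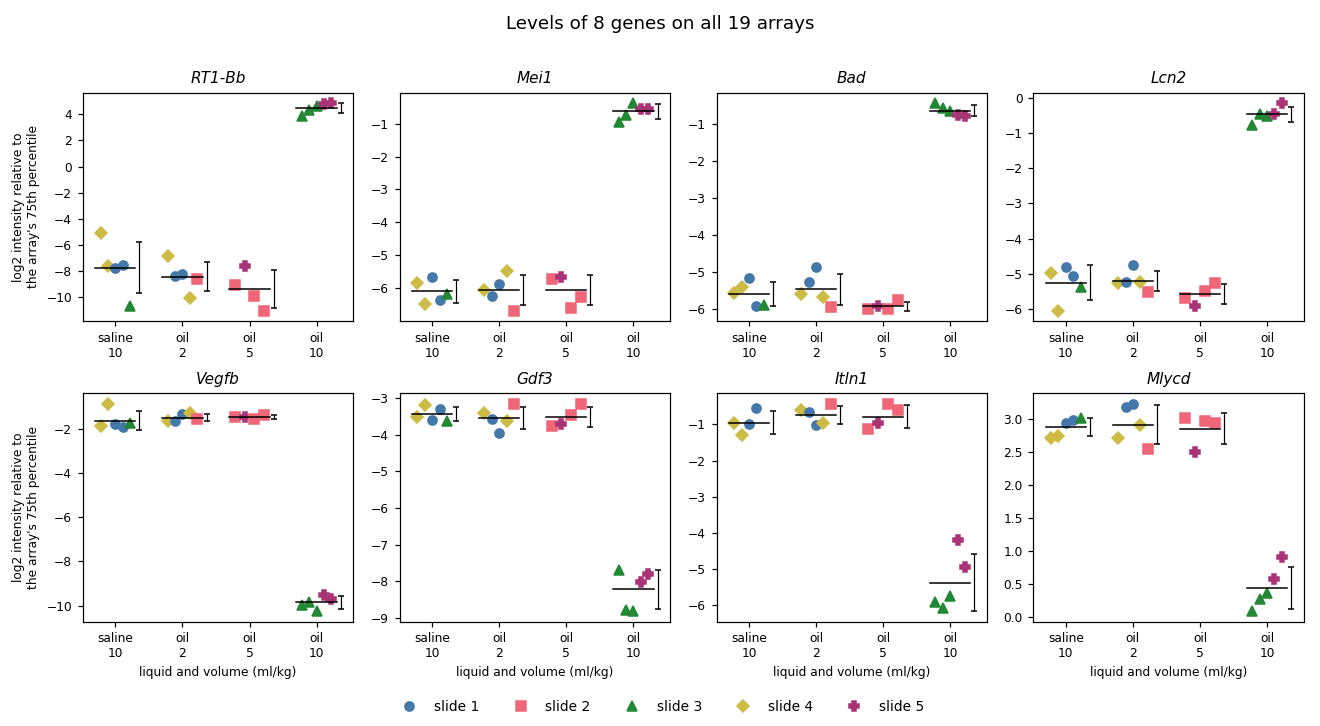
Level of 8 genes on all 19 arrays (y, log2 intensity relative to the array's 75th percentile) by liquid and volume in ml/kg (x), with symbols for the slide, the line at the group mean and the bar at ± SD. The 5 arrays at 10 ml/kg corn oil lie apart from the other 14 in all 8 genes, on slide 3 and on slide 5 alike.

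Bad and Vegfb, which changed in opposite directions, lie 5 places apart in RefSeq gene order on rat chromosome 1. Vegfb, a ligand of the VEGF family, read -9.97, -9.86, -10.26, -9.51 and -9.70 at 10 ml/kg, where it was well above background on 0 of 5 arrays, against -1.43, -1.42, -1.54 and -1.34 at 5 ml/kg. It was at least 95.9-fold lower at 10 ml/kg (adjusted p = 2.50e-14 with limma, 5.46e-09 with slide as a block, 1.56e-06 within slide 5). That bound belongs to the main processing, and after normexp Vegfb differed by -3.28. Between Bad and Vegfb lie Plcb3 (-0.28, adjusted p = 0.0736), Ppp1r14b (0.23) and Fkbp2 (0.47, adjusted p = 0.0927), which did not pass. Of the tested neighbours up to 5 places from either gene, Gpr137 alone passed (0.44 ± 0.11, adjusted p = 0.0279), and it was lost in 7 of the 9 fits without 1 array, with an adjusted p of up to 0.0772. Of the other ligands and receptors of the VEGF family, Pgf, placental growth factor, rose by 0.76 ± 0.21 (adjusted p = 0.0392, 0.251 with slide as a block, up to 0.128 without 1 array), and 7 of the 9 genes tested did not pass.

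The largest fall of a named gene, that of Ucp1 (-8.93), and those of other fat genes and of vomeronasal receptors are described below. Further large falls were found in Gdf3, Itln1 and Mlycd. Gdf3, a ligand of the TGF-beta family, read -7.71, -8.78, -8.82, -8.02 and -7.81 at 10 ml/kg and -3.75, -3.71, -3.46 and -3.16 at 5 ml/kg (-4.71 ± 0.23, adjusted p = 8.29e-10, limma), and another probe gave -4.02. Both probes were well above background on 1 of 5 arrays at 10 ml/kg, so the size of this fall rests on levels mostly near background. Itln1, an intelectin that binds microbial sugars, read -5.91, -6.07, -5.75, -4.19 and -4.93 against -1.14, -0.97, -0.42 and -0.60 (-4.59 ± 0.32, adjusted p = 1.77e-07). Mlycd, the decarboxylase that removes malonyl-CoA, the inhibitor of fatty acid entry into mitochondria, read 0.09, 0.27, 0.37, 0.57 and 0.92 against 3.01, 2.50, 2.96 and 2.92 (-2.40 ± 0.17, adjusted p = 1.43e-07). The groups did not overlap in any of these genes. After normexp the differences of Itln1 and Mlycd were -3.15 and -2.35. Within slide 5 the differences were -4.20 for Gdf3, -3.59 for Itln1 and -1.75 for Mlycd, all past the threshold there, and normexp gave -1.61 for the dim Gdf3, which was not.

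Cd300lg, a receptor of capillary endothelium, fell by 4.40 ± 0.40 (adjusted p = 2.50e-06, limma), with 10 ml/kg arrays between -7.05 and -4.98 and 5 ml/kg arrays between -2.02 and -1.63, while another probe of it differed by -0.69 (adjusted p = 0.210). Kcnd2, a potassium channel of the A type, read -9.92, -8.57, -9.75, -3.60 and -8.21 at 10 ml/kg against -2.96, -3.41, -3.21 and -3.54 (adjusted p = 0.00329). Its replicate 4 thus lay beside the 5 ml/kg arrays, and with slide as a block the adjusted p was 0.167. Mug1l1, a murinoglobulin-like protease inhibitor, was not well above background on any 10 ml/kg array and at least 2.41-fold lower (adjusted p = 0.000905, 0.0234 with slide as a block), although a second probe stood at 0.37. Lnx1, a ubiquitin ligase, fell by 2.10 ± 0.44 (adjusted p = 0.00880, 0.0360 with slide as a block). Mug1l1 and Lnx1 were named because they passed with slide as a block, so those p-values are no separate check. Within slide 5 these last 2 had adjusted p-values of 0.172 and 0.318.

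Other large rises were found in dimmer probes. Hba-a3, an alpha globin, read -4.18, -3.58, -4.77, -3.79 and -4.64 at 10 ml/kg and -8.09, -8.39, -7.07 and -7.89 at 5 ml/kg (3.67 ± 0.68, adjusted p = 0.00351, limma), and it was well above background on 2 of the 4 arrays at 5 ml/kg. Ccdc146, a coiled-coil protein, rose by 3.65 ± 0.31 (adjusted p = 1.21e-06) and Mpped1, a metallophosphoesterase, by 3.29 ± 0.43 (adjusted p = 0.000162), while another probe of Mpped1 stood at 0.36. Gucy2g, a membrane guanylate cyclase, rose by 2.98 ± 0.31 and Serpinb13, a serpin, by 2.78 ± 0.52, both well above background on 1 array at 5 ml/kg. Abcc12, a transporter of the ABC family, and Rnase10, of the RNase A family, were dim on all arrays at 5 ml/kg and at least 3.91-fold and 3.28-fold higher. All 7 passed with slide as a block, and Gucy2g, Serpinb13 and Rnase10 did not pass within slide 5 (adjusted p = 0.0976, 0.149 and 0.141). After normexp none of the 7 passed.

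Vomeronasal type 2 receptor genes, whose products detect pheromones in the nose, included 4 of the largest falls. Vom2r4 read -10.18, -4.04, -4.29, -3.18 and -9.75 at 10 ml/kg and -2.78, -2.80, -1.47 and -2.49 at 5 ml/kg (-3.90 ± 1.13, adjusted p = 0.0447, limma). Replicates 1 and 5 at 10 ml/kg were low and not well above background, and replicates 2 to 4 were nearer to the 5 ml/kg arrays. Vom2r73, Vom2r1 and Vom2r5 had the same pair of low arrays, with differences of -3.71, -3.50 and -3.48 (adjusted p = 0.00857, 0.0119 and 0.0452), although another probe of Vom2r73 stood at 1.08. Of 31 Vom2r probes tested, 11 were lower and 0 higher, with a median of -0.84 against -0.11 over all probes. Among all genes with a symbol, 1 probe each, 4.08% were lower and 4.35% higher. The slide-blocked fit called 1, and within slide 5 and after normexp limma called 0, and the medians there were -0.82, -0.38 and -0.11. Vom2r4 and Vom2r5 lost their calls in 6 and 7 of the 9 fits without 1 array (adjusted p up to 0.132 and 0.137) and Vom2r1 without 5 ml/kg replicate 3 (0.0504). These receptors have closely similar sequences, so a probe may read several of them.

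MHC class II genes, which present peptides to CD4 T cells, moved in 1 direction where they moved. Of 12 listed genes 10 were tested, and 4 were higher, 0 lower and 6 not called, with a median of 0.30. Over all genes with a symbol, 1 probe each, 549 of 12615 were higher (4.35%) and 515 lower (4.08%), 8.43% in all. The counts of the other lists are to be set beside these shares. RT1-DOb, a chain of the DO molecule that restrains peptide loading in B cells and thymic medulla, read -2.10, -1.60, -1.19, -1.44 and -1.52 at 10 ml/kg against -4.47, -3.86, -4.07 and -3.92 (2.51 ± 0.32, adjusted p = 0.000114, limma). RT1-Db1, a beta chain of the classical RT1-D molecule, read 3.66, 3.73, 3.81, 3.64 and 3.69 against 2.84, 2.98, 3.25 and 3.17 (0.65 ± 0.12, adjusted p = 0.00452), and another probe of it stood at 0.37. In both genes the 10 ml/kg arrays lay above all 14 other arrays of the study.

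RT1-DMa, part of the molecule that loads peptides, rose by 0.54 ± 0.11 (adjusted p = 0.00758) and Cd74, the invariant chain, by 0.39 ± 0.11 (adjusted p = 0.0403). Ciita, the master regulator of these genes, stood at -0.50 (adjusted p = 0.348), and RT1-Da and RT1-Ha at 0.21 and 0.12. Blocked by slide, RT1-DOb (2.33, adjusted p = 0.00329) and RT1-Db1 (0.71, 0.0454) passed, and RT1-DMa (0.0779) and Cd74 (0.626) did not. Within slide 5 RT1-DOb passed (2.38, adjusted p = 0.0272) and the list had a median of 0.45. Cd74 lost its call in 7 of the 9 fits without 1 array (adjusted p up to 0.148), and without the 10 ml/kg arrays of slide 3 the list had 1 call.

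The promoter windows of RT1-DOb, RT1-Db1 and RT1-DMa, which were called, and of RT1-Bb, whose probes disagree, are shown because members of this family share regulatory boxes, of which the Y box is an inverted CCAAT sequence. Windows run from 250 bases before to 50 after the RefSeq start of the gene on assembly GRCr8, and all lie on the minus strand: RT1-Bb at chr20:4604069-4604368, RT1-DOb at chr20:4627474-4627773, RT1-Db1 at chr20:4560113-4560412 and RT1-DMa at chr20:4712286-4712585. Capitals mark the letters GATTGG, searched on both strands, and in RT1-DOb also the X box letters CCTAGCAAC.
RT1-Bb: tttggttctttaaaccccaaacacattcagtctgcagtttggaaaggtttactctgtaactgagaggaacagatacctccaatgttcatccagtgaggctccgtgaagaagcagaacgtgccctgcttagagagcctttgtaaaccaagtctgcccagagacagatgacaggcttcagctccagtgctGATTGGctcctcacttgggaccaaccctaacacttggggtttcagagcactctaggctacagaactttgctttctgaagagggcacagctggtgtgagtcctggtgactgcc
RT1-DOb: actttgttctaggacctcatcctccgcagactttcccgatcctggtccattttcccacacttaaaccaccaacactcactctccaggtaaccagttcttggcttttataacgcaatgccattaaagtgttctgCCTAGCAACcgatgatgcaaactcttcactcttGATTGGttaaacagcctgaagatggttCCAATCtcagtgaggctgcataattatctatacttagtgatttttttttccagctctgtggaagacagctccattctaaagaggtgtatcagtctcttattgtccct
RT1-Db1: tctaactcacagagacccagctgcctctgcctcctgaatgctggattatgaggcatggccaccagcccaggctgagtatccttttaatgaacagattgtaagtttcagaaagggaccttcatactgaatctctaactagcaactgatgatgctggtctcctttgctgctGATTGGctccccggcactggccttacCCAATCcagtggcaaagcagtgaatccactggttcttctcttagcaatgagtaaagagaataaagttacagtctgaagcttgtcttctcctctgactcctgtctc
RT1-DMa: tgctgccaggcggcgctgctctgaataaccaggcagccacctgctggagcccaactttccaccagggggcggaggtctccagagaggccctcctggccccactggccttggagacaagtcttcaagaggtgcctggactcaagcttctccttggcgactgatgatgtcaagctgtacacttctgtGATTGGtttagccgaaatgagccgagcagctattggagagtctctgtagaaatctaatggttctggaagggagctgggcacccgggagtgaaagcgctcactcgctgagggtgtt
Relative to the start, the letters GATTGG stood at -62, -84, -81 and -65 on the coding strand, and RT1-DOb and RT1-Db1 held them again on the other strand, at -57 and -55. Of 33469 RefSeq windows of this length, 14.8% held GATTGG and 0.807% held CCTAGCAAC, which RT1-DOb alone held among these. The window of Cd74, also called, was searched too and held neither motif, so 4 of the 5 class II windows searched held GATTGG. The match is a description of letters and bears on no factor.

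The median of B cell and plasma cell genes lay well above that of all probes. Of 15 tested, 4 were higher and 0 lower, 13 were positive, and the median was 0.77. After normexp limma called 0 of the 15, at a median of 0.68. As arrays read bulk tissue, more cells of a type and more RNA per cell cannot be told apart. Mzb1, a chaperone of antibody secretion, rose by 1.45 ± 0.30 (adjusted p = 0.00858, limma), Blnk, an adaptor of the B cell receptor, by 0.77 ± 0.15 (adjusted p = 0.00651), Fcrla by 1.54 ± 0.41 (adjusted p = 0.0304) and Vpreb3 by 2.00 ± 0.53 (adjusted p = 0.0316). Cd79b, a signalling chain of the B cell receptor, stood at 1.38 (adjusted p = 0.157), and all 15 genes were well above background on all 9 arrays. On each array the median of the list, relative to each gene's mean over the 19 arrays, was 0.30 to 0.53 at 10 ml/kg and -0.50 to -0.29 at 5 ml/kg, while saline arrays ran from -0.25 to 1.61. With slide as a block limma called 0 (5 at an unadjusted p under 0.05), at a median of 0.87, and within slide 5 it called 0 (2 unadjusted), at 0.73. Fcrla and Vpreb3 lost their calls in 6 of the 9 fits without 1 array (adjusted p up to 0.0920 and 0.0938), and the part of B cells in the class II result was not tested.

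Granulocyte genes also had a high median, and 3 of them rose. Of 19 tested 3 were higher and 0 lower, 18 were positive, and the median was 0.82, against 4.35% higher among all genes with a symbol. Beside Lcn2, Elane, the neutrophil elastase gene, read -3.30, -2.86, -2.29, -2.46 and -3.62 against -5.21, -4.13, -4.27 and -4.02 (1.504 ± 0.358, adjusted p = 0.0182, limma), and the groups did not overlap. Prg2, the eosinophil major basic protein gene, read 1.38, 2.95, 1.58, 3.00 and 1.91 against 0.72, 1.20, 1.14 and 0.91 (1.17 ± 0.34, adjusted p = 0.0470), also without overlap.

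The calprotectin gene S100a9 stood at 0.82 and the cathelicidin gene Camp at 0.81 (adjusted p = 0.134 and 0.226). The list had a median of 1.00 with slide as a block and 1.16 within slide 5, where all 19 members had the sign of the main fit, but Lcn2 was the 1 member called in both. Its median by array was 0.07 to 1.19 at 10 ml/kg, -0.30 to 0.00 at 5 ml/kg and -1.26 to 0.07 with saline. Elane lost its call without 5 ml/kg replicate 1 (adjusted p = 0.0773) and Prg2 in 6 of the 9 such fits (up to 0.137). Over these fits 1 to 6 members were called. Of 17 mast cell genes, Tpsab1, a tryptase, rose by 1.35 ± 0.25 (adjusted p = 0.00365, 0.213 with slide as a block) and 16 were not called, with a median of 0.31.

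Most interferon-induced genes were not called, and those that were rose, some of them by a lot. Of 37 tested, 6 were higher, 0 lower and 31 not called, with a median of 0.15. Among all genes with a symbol 4.35% were higher. Oas1d, of the oligoadenylate synthetase family, read -2.61, -3.18, -3.21, -1.74 and -2.28 at 10 ml/kg against -5.11, -4.63, -5.08 and -5.05 (2.37 ± 0.29, adjusted p = 0.000106, limma), and every 10 ml/kg array lay above the other 14. Ifit1 read -6.99, -7.66, -7.62, -6.20 and -6.52 against -10.20, -9.89, -10.11 and -10.92 and was at least 2.17-fold higher (adjusted p = 0.00627), dim on all arrays at 5 ml/kg and with a difference of 0.28 after normexp, which did not pass. Usp18, which removes ISG15 from proteins, rose by 0.58 ± 0.13 (adjusted p = 0.0152, 0.0662 without 5 ml/kg replicate 1).

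These 3 also passed with slide as a block (2.49, 3.44 and 0.86). Tap2, a peptide transporter, rose by 1.05 ± 0.22 (adjusted p = 0.00857), yet its difference within slide 5 was 0.14 (adjusted p = 0.993). Bst2, tetherin, rose by 1.70 ± 0.41 (adjusted p = 0.0186) and stood at -0.32 within slide 5, with values of 1.04, 0.51 and 0.68 on slide 3 and -0.51 and -1.04 on slide 5 at 10 ml/kg. The widely used interferon markers Mx1, Isg15 and Rsad2 stood at 0.24, 0.37 and -0.00258 (adjusted p = 0.334, 0.283 and 0.996). Within slide 5 the list had a median of 0.37 with Oas1d and Ifit1 called.

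Fat genes had negative differences throughout, with a large spread between arrays, and few of them passed the test. Of 22 white adipocyte genes tested 0 were positive, 3 were lower and 19 not called, with a median of -1.73. Of 10 brown fat genes 0 were positive and 2 lower, with a median of -1.70. Cd36, a fatty acid transporter, read 1.26, 1.11, 1.44, 1.25 and 1.11 against 2.12, 2.04, 2.27 and 2.41 (-0.98 ± 0.19, adjusted p = 0.00471, limma), below all 14 other arrays, with an adjusted p of 0.257 in the slide-blocked fit. Ucp1, which uncouples respiration in brown fat, read -7.98, -7.23, -3.79, -8.43 and -8.40 against 1.94, 2.70, -0.51 and 2.94 (-8.93 ± 2.09, adjusted p = 0.0167). Without overlap between these groups, it still ran from -6.82 to 4.30 with saline and from -6.11 to 2.74 at 2 ml/kg, so the spread within those groups was about as wide as the gap between the volumes.

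Lpl, lipoprotein lipase, fell by 1.92 ± 0.56 (adjusted p = 0.0447) and Rbp4, a retinol carrier, by 2.78 ± 0.82 (adjusted p = 0.0477). Adipoq, the adiponectin gene, read 0.48, -0.67, 0.11, -3.14 and -2.51 against 0.75, 1.39, 1.08 and 1.04 (-2.21 ± 0.93, adjusted p = 0.146), and Scd, a desaturase, 1.14, 0.55, 1.96, -1.57 and -1.69 against 2.51, 2.68, 2.75 and 1.94 (-2.39 ± 0.94, adjusted p = 0.121). In Adipoq and Scd the arrays of slide 5 were the lowest of the 10 ml/kg group. One probe of Cidea, a lipid droplet protein, fell by 4.28 ± 1.27 (adjusted p = 0.0484) and its brighter probe stood at -4.33 (adjusted p = 0.0508).

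**Figure D4:**
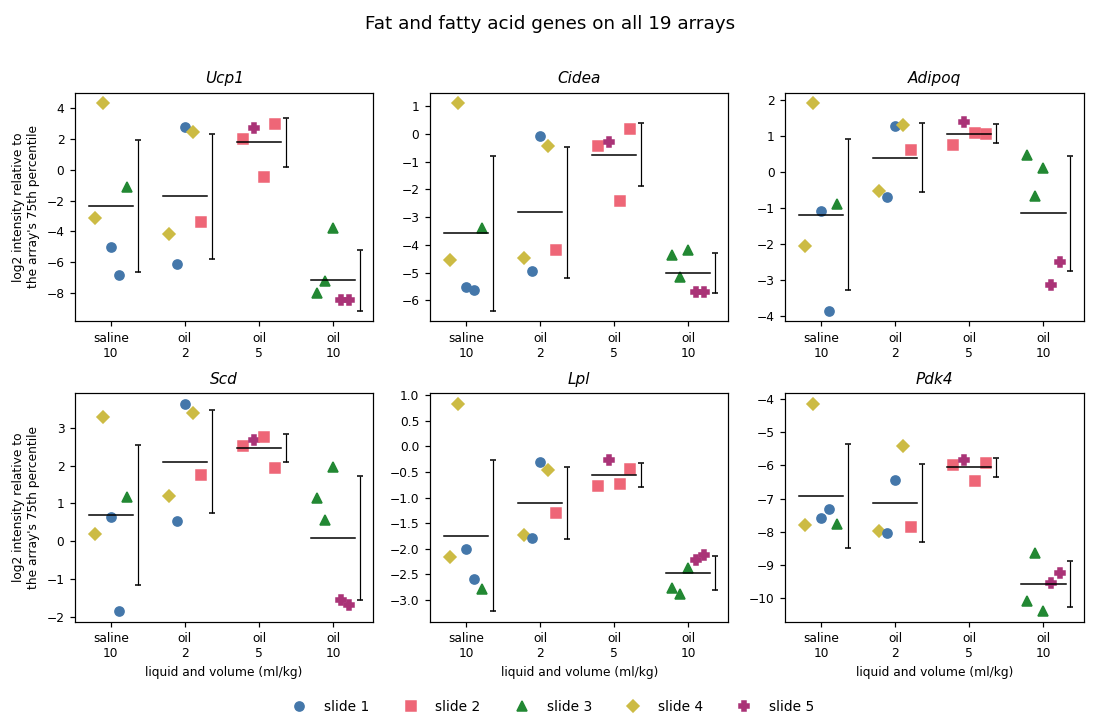
Level of 6 fat and fatty acid genes on all 19 arrays (y, log2 intensity relative to the array's 75th percentile) by liquid and volume in ml/kg (x), with symbols for the slide, the line at the group mean and the bar at ± SD. Ucp1 runs from -6.82 to 4.30 with saline, and in Adipoq and Scd the arrays of slide 5 are the lowest of the 10 ml/kg group.

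Blocked by slide, the white adipocyte median was -2.16 and within slide 5 it was -2.89, with 0 members called by limma in either (11 and 10 at an unadjusted p under 0.05). The brown fat medians were -1.48 and -1.80, with 0 called (5 and 2 unadjusted). After normexp limma called 0 members of either list, at medians of -1.21 for white and -0.65 for brown fat. Without 1 array at a time, 1 to 2 white adipocyte genes were lower. The array medians of the white list were -1.44 to -0.06 at 10 ml/kg, 0.44 to 1.26 at 5 ml/kg and -1.60 to 2.25 with saline. For that list both oil groups lay within the saline range. Those of the brown list were -1.41 to -0.93 at 10 ml/kg, -0.02 to 1.21 at 5 ml/kg and -0.60 to 1.94 with saline. There the 10 ml/kg arrays lay below the saline range and the 5 ml/kg arrays within it. Against saline, a comparison that shares these arrays, the white list had medians of -0.67 at 10 ml/kg and 1.23 at 5 ml/kg. Of the fat genes called, Rbp4 and the named Cidea probe lost the call in all 9 fits without 1 array (adjusted p up to 0.108 and 0.124), Lpl in 7 (0.0957), Ppara in 6 (0.153) and Ucp1 without 5 ml/kg replicate 1 (0.0510), while Cd36 kept it. How much fat each thymus sample carried was not measured otherwise, and its part in these values was not tested.

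Of the genes that handle fatty acids outside storage, those called went both ways, while most had negative differences. Of 34 oxidation genes and PPAR targets 2 were higher and 4 lower, 8 were positive, and the median was -0.37. Cpt1a, which admits fatty acids to mitochondria, read -1.52, -1.72, -1.61, -1.16 and -1.48 against -2.59, -2.05, -1.84 and -2.19 (0.67 ± 0.14, adjusted p = 0.00717, limma), above the other 14 arrays. Pdk4, the kinase that spares glucose carbon by blocking pyruvate dehydrogenase, was well above background on 0 of 5 arrays at 10 ml/kg and 4 of 4 at 5 ml/kg, and at least 3.90-fold lower (adjusted p = 0.00554). Ucp2 rose by 0.41 ± 0.10 (adjusted p = 0.0184, 0.0637 without 5 ml/kg replicate 4), and Acot2 and Ehhadh, a thioesterase and a peroxisomal enzyme, fell by 0.70 and 0.75.

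With slide as a block Cpt1a had an adjusted p of 0.0839 at a difference of 0.75, and Pdk4 0.171. Ppara, the receptor that these targets respond to, fell by 2.40 ± 0.68 (adjusted p = 0.0420, 0.459 with slide as a block) and was well above background on 1 array at 10 ml/kg. Of 24 fatty acid synthesis genes, Lpin1 was lower (-0.81 ± 0.18, adjusted p = 0.0106) and 23 were not called. In that list 4 were positive, and the median was -0.61. Of 35 cholesterol genes 1 was higher and 2 were lower, with a median of -0.01. Of these, Lss, an enzyme of sterol synthesis, fell by 0.71 ± 0.15, Dhcr7, the last enzyme of synthesis, rose by 0.57 ± 0.15, and Scarb1, the HDL receptor, fell by 1.14 ± 0.33 and stood at 0.03 within slide 5. Dhcr7 and Scarb1 lost their calls in 6 and 7 of the 9 fits without 1 array (adjusted p up to 0.111 and 0.132).

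Most genes of the thymocytes themselves differed little. Of 20 genes of the T cell receptor and its first signalling steps 0 passed with limma (4 at an unadjusted p under 0.05), 0 passed with slide as a block (2 unadjusted) or within slide 5 (1 unadjusted), and the median was 0.01, with Cd3e at -0.28, Cd3g at -0.09, Lck at -0.16 and Zap70 at 0.10. Of 18 immature thymocyte genes 1 was higher and 2 were lower, against 8.43% called among all genes with a symbol. The median of the 18 was -0.08 (0.03 after quantile normalization). Rag1 read 4.57, 4.45, 4.91, 4.36 and 4.66 against 4.88, 4.58, 4.90 and 4.77, a difference within the spread of the arrays (-0.19 ± 0.12, adjusted p = 0.354). Cd4 and Cd8a stood at 0.11 and -0.06, the latter with a sign that turned after quantile normalization (0.04) and normexp (0.07).

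Dntt, the enzyme that adds bases at receptor gene joints, read 4.06, 4.09, 4.22, 3.48 and 3.42 against 3.34, 3.38, 2.95 and 3.22 (0.63 ± 0.18, adjusted p = 0.0396, limma). Its 3 high arrays were those of slide 3, and its difference was 0.07 within slide 5 (adjusted p = 1.00). Ets1, a transcription factor, fell by 1.80 ± 0.36 (adjusted p = 0.00758, 0.0315 with slide as a block), with a missing value for replicate 1 at 10 ml/kg. Ccr9, a receptor that guides thymocytes, fell by 0.44 ± 0.13 (adjusted p = 0.0428), and both Dntt and Ccr9 lost the call in 6 of the 9 fits without 1 array (adjusted p up to 0.135 and 0.136). Of 19 mature and regulatory T cell genes, Itgb7 was higher (0.39 ± 0.11, adjusted p = 0.0383, up to 0.138 without 1 array).

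In the thymic epithelium, 3 of 22 genes were higher and 0 lower, with a median of 0.02, against 4.35% higher among all genes with a symbol. The 3 were the medullary keratin gene Krt5 (0.64 ± 0.15, adjusted p = 0.0180, limma) and the chemokine genes Ccl19 (0.55 ± 0.16, adjusted p = 0.0398) and Ccl21 (0.69 ± 0.18, adjusted p = 0.0303), which draw mature thymocytes to the medulla. Krt14, the partner keratin, stood at 0.76 (adjusted p = 0.0563). Aire, which drives tissue antigens in the medulla, read -6.85, -6.85, -6.89, -7.00 and -6.60 against -6.96, -6.91, -6.36 and -7.03, with full overlap (-0.02 ± 0.23). Foxn1 and Prss16, of the cortex, stood at -0.15 and -0.20. The slide-blocked fit called 0 of the 22 (2 at an unadjusted p under 0.05; adjusted p for Krt5 0.557, Ccl19 0.325 and Ccl21 0.207), and each lost its call in 2 to 5 of the 9 fits without 1 array, with adjusted p-values of up to 0.0671, 0.148 and 0.0970. After normexp limma called 0 of the 22 epithelium genes. Of 22 macrophage and dendritic cell genes 0 passed with limma (6 at an unadjusted p under 0.05), 0 with slide as a block (4 unadjusted), and the median was -0.09 (0.01 after quantile normalization).

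**Figure D5:**
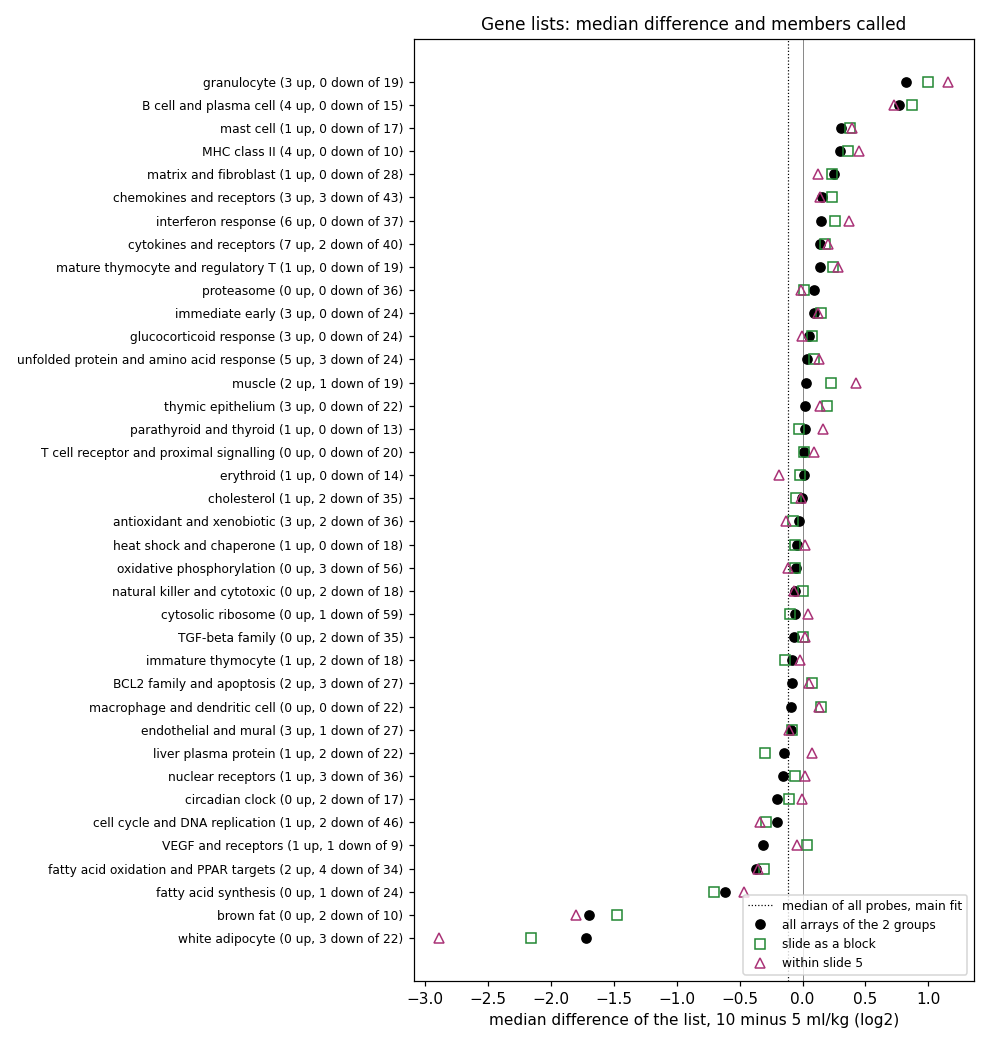
Median difference (x, log2, 10 minus 5 ml/kg) of each of 38 gene lists over all arrays of the 2 groups, with slide as a block and within slide 5, and in brackets the members called in the main fit. Granulocyte and B cell genes lie highest in all 3, white adipocyte and brown fat genes lowest, and most lists lie near the median of all probes (-0.11, dotted).

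Among stress and signalling lists, the called glucocorticoid response and immediate early genes were all higher, and those of the unfolded protein list went both ways. Of 24 glucocorticoid response genes 3 were higher, among them Lcn2 and Nfkbia, the inhibitor that NF-kappaB induces (0.59 ± 0.13, adjusted p = 0.0138, 0.305 with slide as a block, 0.0607 without 5 ml/kg replicate 1, limma). The classical targets Fkbp5 (-0.39 ± 0.12, adjusted p = 0.0548) and Tsc22d3 (0.13 ± 0.18) did not pass. Of 24 immediate early genes 3 were higher. Nr4a2, an orphan nuclear receptor induced by receptor signalling, read -1.53, -1.42, -1.69, -1.37 and -1.38 against -2.25, -2.20, -2.04 and -2.18 (0.69 ± 0.11, adjusted p = 0.000865, limma), above all other 14 arrays, and it passed with slide as a block (0.74, adjusted p = 0.00661) and within slide 5 (0.82, 0.0292). Among 24 genes that respond to unfolded protein or amino acid shortage, 5 were higher and 3 lower, against 8.43% called among all genes with a symbol, while 1 was called with slide as a block and limma called 0 within slide 5 (5 at an unadjusted p under 0.05). Trib3, induced by amino acid shortage, rose by 0.92 ± 0.10 (adjusted p = 3.61e-05, 0.0216 with slide as a block, 0.174 within slide 5), while the chaperone genes Pdia4 and Dnajc3 fell by 0.80 and 0.47 and stood at -0.13 and -0.16 within slide 5 (Dnajc3 up to 0.0615 without 1 array).

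Among 27 BCL2 family and apoptosis genes, 2 were higher and 3 lower, and Bad was the largest. Pmaip1, known as Noxa, read -5.91, -6.24, -6.23, -4.96 and -4.95 against -3.48, -3.54, -3.36 and -4.08 (-2.04 ± 0.31, adjusted p = 0.000681, limma, 0.0155 with slide as a block, 0.139 within slide 5). Bmf, another BH3-only gene, fell by 0.77 ± 0.15 (adjusted p = 0.00627, 0.0806 with slide as a block). Both lay below all 14 other arrays. Bak1, a pore-forming member, rose by 0.52 (adjusted p = 0.0200, 0.375 with slide as a block), and Cycs, cytochrome c, fell by 0.53 ± 0.12 with 2 of the 5 arrays at 10 ml/kg missing (0.0747 without replicate 3).

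Genes of other cells and neighbouring tissue were mostly near the median of all probes, with matrix and fibroblast genes above it. Of 27 endothelial and mural genes 3 were higher, Tagln (1.00 ± 0.21, adjusted p = 0.00852, 0.0368 with slide as a block, limma), Pecam1 (0.62, 0.0172, and 0.0522 without 5 ml/kg replicate 1) and Pdgfrb (0.78, 0.0214, and up to 0.0730 without 1 array), and Cd300lg was lower, with a median of -0.09. Of 28 matrix and fibroblast genes 24 were positive, with a median of 0.25 (0.23 with slide as a block, 0.12 within slide 5). The 1 called was Timp1, an inhibitor of matrix proteases, which was higher (0.72 ± 0.11, adjusted p = 0.000716), above all 14 other arrays (0.0536 with slide as a block). Of 18 natural killer and cytotoxic genes 2 were lower, Klrb1a (-0.95 ± 0.21, adjusted p = 0.0120, 0.415 with slide as a block) and Ncr1 (at least 1.38-fold, adjusted p = 0.0152, dim on all arrays at 10 ml/kg, 0.0555 with slide as a block, 0.0658 without 5 ml/kg replicate 3), and neither passed after normexp. Of 14 erythroid genes Hba-a3 was the 1 called, at a list median of 0.01.

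Of 22 liver plasma protein genes, Alb, the albumin gene, fell from a range of -3.21 to -1.87 at 5 ml/kg to -6.41 to -4.06 at 10 ml/kg (-2.89 ± 0.71, adjusted p = 0.0210, 0.0156 with slide as a block, 0.0608 without 5 ml/kg replicate 4, limma). Hp, haptoglobin, an acute phase gene, rose by 1.14 ± 0.21 (adjusted p = 0.00416, 0.182 with slide as a block) above the other 14 arrays, and Rbp4 was lower. Of 19 muscle genes 2 were higher and 1 lower (Actn3, Tnni2 and Myl1), and of 13 parathyroid and thyroid genes Casr was higher (0.71 ± 0.20, adjusted p = 0.0404). All 4 lost these calls with slide as a block and in 3 to 6 fits without 1 array.

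Of the 117 called probes whose sign turned within slide 5, which were chosen for that turn, the largest are given as a description. The probe A_64_P015821, which matched no RefSeq symbol, read -3.33, -4.03 and -3.19 on slide 3 and -0.08 and -0.36 on slide 5 at 10 ml/kg, and 0.65, 0.90 and 1.03 on slide 2 and -0.22 on slide 5 at 5 ml/kg. The main difference was -2.78 ± 0.76 (adjusted p = 0.0347, limma) and that within slide 5 was 0.01. The 5 next largest falls of this kind, all of probes without a symbol, had differences of -2.39 to -2.31, and within slide 5 of 0.04 to 0.25. The rises of this kind were led by Bst2, with Epn3 (0.72, -0.04 within slide 5) and Zfp428 (0.67, -0.01 within slide 5) among the 6 largest.

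Across all alternatives, the named probes of 9 genes kept their call throughout, which covers the other normalizations, filters, slide blocks and fits without 1 array: RT1-Bb, Mei1, Bad, Lcn2, Vegfb, Itln1, Cd300lg, Mlycd and Oas1d. For RT1-Bb and Cd300lg another probe did not pass in the main fit. Mlycd was named because it passed with slide as a block, so that setting is no separate check for it. Of the 120 called genes and probes that were named by rule, 53 kept the call without any single array and 67 lost it without at least 1.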

How the data were processed

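Per the file headers, each array was scanned in 1 colour (Cy3) and read with Agilent Feature Extraction, and the deposited processed intensity is background-subtracted and detrended within the array. The processed intensity of the same arrays in the deposited value table carries an array factor, and the sources used here do not give its basis. The 1377 control spots were left out, and 42877 other spots were used. Spots with a non-uniformity or population outlier mark became missing values, spots of a probe were averaged, and log2 values were taken minus the array's 75th percentile. Probes well above background on at least 4 of the 19 arrays with 2 values in every group were kept, 25475 of 30367. limma 3.58.1 (R 4.3.3) fitted all 19 arrays with a coefficient per group (15 residual degrees of freedom), lmFit and eBayes, two-sided, with Benjamini-Hochberg adjustment at 0.05. Within-slide values came from a fit of group by slide. Normexp (offset 50) used the median signal and median background columns, since the mean signal was not used here. On simulated data of 24578 probes for this comparison, 56% of changes of 1 and 86% of changes of 2 log2 units were recovered, with 4 false calls. The simulated arrays varied independently and held no slide effect, so these rates do not measure the errors among the real calls.

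Probes were named through RefSeq accessions (GRCr8): 17320 probes matched 14623 genes and 13047 matched none. A list gene is represented by its brightest probe. Dim on all arrays of a group means a bound only: "at least" folds set the brighter mean against the lowest signal well above background on each array, or the probe's own if higher. Those bounds hold for the main processing alone. Genes were named by rule: the 12 largest rises and falls that passed, did not overlap and were bright in the higher group; the 8 largest each way that also passed with slide as a block; up to 4 called members per list; 11 genes of interest; neighbours of Vegfb and Bad; and the 6 largest calls each way whose sign turned within slide 5. Other list members were named for their known roles, after their values were seen. The members and lists were chosen with earlier results of these data known. Precision is limited by the number of arrays.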

Additional observations from a re-analysis of the deposited data

Results flagged for a closer look

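In 9 of 274 sets of arrays of 1 group and 1 named gene, the highest or lowest array stood far from the rest, where chance gives about 1 in 20. At 10 ml/kg, Ucp1 read -3.79 in replicate 3 against -8.43 to -7.23 in the others, and Kcnd2 read -3.60 in replicate 4 against -9.92 to -8.21. At 5 ml/kg, replicate 2 read -9.74 for Abcc12 against -8.75 to -8.55, -4.63 for Oas1d against -5.11 to -5.05, and 2.61 for Ppp1r14b against 2.82 to 2.84. This is the 1 array of its group on slide 5. Replicate 1 read 3.44 for Gpx1 against 3.59 to 3.62 and 2.14 for Fkbp5 against 1.84 to 1.87. Replicate 4 read -6.59 for Mug1l1 against -6.80 to -6.79 and 0.39 for Ucp2 against 0.67 to 0.72.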

How the results depend on the processing

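Against 2007 calls, the count was 1285 after quantile normalization, 299 after normexp, 886 in a fit of the 2 groups alone, 295 with slide as a block (95 with the 2 groups alone), 136 within slide 5, 735 with slide as a random block, 315 with scan day as a block and 7027 with array weights. It was 9844 between slides 3 and 2 and 595 without the 10 ml/kg arrays of slide 3, both added after the data had been seen, and 834 to 3547 without 1 array. Same-numbered arrays correlated at -0.282 to 0.146, so the numbers do not pair them, and a replicate block gave 1256. Within slide 5 the 136 calls became 17 after normexp and 211 with array weights. Non-overlapping probes numbered 1197 after normexp and 3200 to 4835 without 1 array, against 2879. The cause of these moves was not tested. Named differences whose sign turned follow. Within slide 5, and with slide as a block in the 2 groups, the differences were Scarb1 0.0341, Ciart 0.25, Rps7 6.9e-06, Cd8a 0.05002, Aire 0.110, Tsc22d3 -0.225, Fkbp2 -0.101, Dnajc4 0.187, Stip1 0.0343, Bst2 -0.316, A_64_P018891 -0.146, A_64_P013077 -0.00197, Epn3 -0.0352, Zfp428 -0.0144, A_64_P064828 -0.132, A_64_P015821 0.00611, A_64_P063045 0.0805, A_64_P003514 0.0429, A_44_P456888 0.25, A_64_P096136 0.0726, A_64_P043377 0.251. After quantile normalization the differences were Cd8a 0.0414, Aire 0.285, Dnajc4 0.124, Kcnk4 0.334. After normexp the differences were Cd8a 0.0724, Aire 0.013. In the deposited table the differences were Cd8a 0.00187, Aire 0.0302, Dnajc4 0.0569. With slide as a block the differences were Scarb1 0.0341, Cd8a 0.0264, Aire 0.0922, Dnajc4 0.148, Esrra -0.0298, Kcnk4 0.216. With slide as a random block the differences were Aire 0.0529, Dnajc4 0.088. With scan day as a block the differences were Cd8a 0.0307, Aire 0.0884, Fkbp2 -0.00373, Dnajc4 0.121, Kcnk4 0.225. Without the slide 3 arrays at 10 ml/kg the differences were Aire 0.0135, Tsc22d3 -0.246, Ppp1r14b -0.0168, Dnajc4 0.0104, Nudt22 -0.0499, Kcnk4 1.12. Without 1 array at a time they ran from lowest to highest as Cd8a -0.12 to 0.00643, Aire -0.0953 to 0.127, Dnajc4 -0.0698 to 0.0271, Kcnk4 -0.7998 to 0.149.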

Other observations

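Cytokine and chemokine genes moved in both directions. Of 40 cytokine and receptor genes tested 7 were higher and 2 lower, with a median of 0.14. Il1rn, the antagonist of the interleukin 1 receptor, rose by 1.22 (adjusted p = 0.000899 with limma, 0.0283 with slide as a block), and Il9r, the interleukin 9 receptor, fell by 1.21 (adjusted p = 0.00144, 0.0275 with slide as a block), with differences of 1.60 and -1.79 within slide 5. Il1r2, the decoy receptor of interleukin 1, stood at 0.66 (adjusted p = 0.0156, 0.223 with slide as a block). Of 43 chemokine and receptor genes 3 were higher and 3 lower. Ccr4, a receptor of T cells, fell by 0.82 (adjusted p = 0.00262, 0.0765 with slide as a block), and Ccl3, a chemokine of activated leukocytes, by 0.93 (adjusted p = 0.00343, 0.224 with slide as a block).

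Genes of basic cell machinery had few calls. Of 46 cell cycle genes 1 was higher and 2 were lower, 10 were positive, and the median was -0.20 against -0.11 over all probes. With slide as a block it was -0.29 against -0.04, and within slide 5 -0.34 against 0.02, where limma called 0 in both (2 and 3 at an unadjusted p under 0.05). Ccnd1, cyclin D1, rose by 0.66 (adjusted p = 0.00733, 0.239 with slide as a block, limma). Of 56 oxidative phosphorylation genes 3 were lower, and Ndufb10, a complex I subunit, fell by 0.50 (adjusted p = 0.00321, 0.0156 with slide as a block). Of 59 ribosomal protein genes 1 was lower. Of 36 proteasome genes limma called 0 (6 at an unadjusted p under 0.05), 0 with slide as a block (2 unadjusted).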
